A study of Mus musculus with 12 samples.

Results

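Interferon-stimulated CD8 T cells of the brain are described here as 1071 of 11647 CD8 T cells from 6 pools of mice. A cell was counted as interferon-high when its unique molecular identifiers (UMIs, 1 per captured RNA molecule) of Ifit1, Ifit3, Ifit3b and Rsad2 summed to 3 or more. The CD8 T cells were barcodes with 500 or more detected genes, at most 10% mitochondrial UMIs, at least 1 UMI of Cd8a or Cd8b1, and none of Cd4 or Trdc. The cells were thus chosen by 4 measured values, and the levels of these 4 genes are given no test. Of the other CD8 T cells, 8855 had a sum of 0 and are called interferon-zero, and 1721 had a sum of 1 or 2 and were left out of gene comparisons. The matrix held 18374 barcodes, of which 17962 passed the cell filter.

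The amyloid pools came from 5XFAD mice (5XFAD-1, 4 mice, and 5XFAD-2, 3 mice) and from PS-5X mice (4 mice), which carry both the 5XFAD and the PS19 transgenes. The pools without the 5XFAD transgene came from wild type (WT-1, 10 mice, and WT-2, 8 mice) and PS19 mice (4 mice), whose transgene expresses mutant human tau (MAPT) under the mouse prion protein promoter. 5XFAD, a C57BL6 congenic line that models brain amyloid, and PS19, a B6C3F1/J line, were crossed hemizygous. The animals were 9-month-old female littermates of that colony, strain-matched among the 4 genotypes. Half-brains of perfused mice were dissociated and sorted for CD4+, CD8+ and γδ+ T cells, so the cells cannot be tied to single mice and PS19 and PS-5X are 1 pool each. The libraries of 5XFAD-2 and WT-2 come from their own sequencing run, here the separate run, and those of the remaining 4 pools from a common run. The pools held 854 to 6373 barcodes and 5883210 to 38616794 UMIs.

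Interferons are cytokines that cells release on sensing viral or other misplaced nucleic acids. Type I interferons bind the receptor chains Ifnar1 and Ifnar2, and interferon gamma, made largely by T and NK cells, binds Ifngr1 and Ifngr2. The type I receptor activates a transcription factor complex with Stat2 and Irf9, which binds the interferon-stimulated response element in gene promoters. Ifit1, Ifit3 and Ifit3b belong to a family of RNA-binding antiviral proteins, and Rsad2 encodes viperin, which makes a chain-terminating nucleotide that blocks viral RNA synthesis. T cells with this expression state are known from several inflamed tissues, the brain among them.

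Promoter windows from RefSeq (GRCm38.p6), 250 bases before to 50 bases after the annotated start, are printed for 3 of the genes that chose the cells and for Isg15 and Cxcl10, which they did not use. The windows are chr19:34583279-34583578 (+ strand) for Ifit3, chr19:34607707-34608006 (+) for Ifit3b, chr12:26456403-26456702 (−) for Rsad2, chr4:156200769-156201068 (−) for Isg15 and chr5:92348840-92349139 (−) for Cxcl10. Capitals mark matches to the core letters of the response element, GAAA, any 2 bases and GAAA, searched on both strands.
Ifit3: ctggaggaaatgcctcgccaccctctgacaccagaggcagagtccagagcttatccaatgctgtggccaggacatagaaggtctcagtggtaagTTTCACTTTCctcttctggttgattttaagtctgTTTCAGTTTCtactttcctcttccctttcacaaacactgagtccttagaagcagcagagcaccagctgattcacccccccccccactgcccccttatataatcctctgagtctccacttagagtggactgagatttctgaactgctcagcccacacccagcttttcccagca
Ifit3b: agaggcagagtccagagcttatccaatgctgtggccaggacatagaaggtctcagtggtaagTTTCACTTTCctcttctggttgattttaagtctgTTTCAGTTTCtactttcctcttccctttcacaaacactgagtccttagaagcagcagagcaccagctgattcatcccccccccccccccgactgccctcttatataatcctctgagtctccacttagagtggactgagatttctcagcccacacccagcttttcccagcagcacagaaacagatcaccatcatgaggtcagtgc
Rsad2: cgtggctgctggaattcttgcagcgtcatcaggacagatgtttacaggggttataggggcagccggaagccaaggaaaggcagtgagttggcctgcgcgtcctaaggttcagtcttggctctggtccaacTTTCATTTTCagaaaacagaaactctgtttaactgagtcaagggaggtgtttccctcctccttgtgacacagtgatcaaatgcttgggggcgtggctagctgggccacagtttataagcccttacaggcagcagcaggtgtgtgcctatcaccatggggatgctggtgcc
Isg15: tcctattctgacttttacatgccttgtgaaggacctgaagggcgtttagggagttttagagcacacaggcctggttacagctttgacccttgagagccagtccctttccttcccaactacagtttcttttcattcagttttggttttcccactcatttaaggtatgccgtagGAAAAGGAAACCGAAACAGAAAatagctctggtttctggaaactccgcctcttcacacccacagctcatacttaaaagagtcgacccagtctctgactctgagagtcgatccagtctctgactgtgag
Cxcl10: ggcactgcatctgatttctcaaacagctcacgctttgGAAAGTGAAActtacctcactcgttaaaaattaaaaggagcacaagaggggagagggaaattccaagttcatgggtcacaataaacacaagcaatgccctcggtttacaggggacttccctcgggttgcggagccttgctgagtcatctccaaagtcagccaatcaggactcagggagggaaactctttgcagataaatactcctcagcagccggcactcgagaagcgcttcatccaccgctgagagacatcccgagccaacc
Ifit3 and Ifit3b held 2 matches each, Rsad2 and Cxcl10 1 each, and Isg15 held 3 that overlap one another. The motif was present in the windows of 3.99% of all 27025 genes in the table, and in those of all 4 genes of the rule. It was present for 22 of the 50 type I interferon response genes that had a window (44.0%). Among the interferon gamma response and antigen presentation genes it was present for 13 of 28 (46.4%), so it was not particular to the type I list. Of the genes higher in interferon-high cells (below), 87 of 447 with a window held it (19.5%), and of the genes lower there, 10 of 246 (4.07%). A match is one of letters and not a binding site.

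The cells carried CD8 T cell transcripts. Cd3e, which the rule did not use, was detected in 99.3% of interferon-high and 98.2% of interferon-zero cells. Cd8b1 was detected in 97.1% and 95.8%, but the cells were chosen by Cd8a or Cd8b1, so this value is no evidence of their identity. Cd40lg, a marker of helper T cells, was detected in 3.92% of interferon-high and 5.06% of interferon-zero cells. Of 15 microglia and macrophage markers, 7 had no UMI in any interferon-high cell, among them C1qa, C1qb, C1qc, Lyz2, Tmem119 and Trem2. The summed level of that list was 101 to 217 CPM (UMIs scaled to a common library total) over the 6 interferon-high sums and 136 to 183 CPM over the interferon-zero sums. Of the 985 UMIs of that list in interferon-high cells, 686 were Cst3, which T cells also express. Levels of Isg15 and Usp18 were graded, with no gap at the threshold. Cells with a 4-gene sum of 2, just outside, averaged 159 CPM of Isg15 and 45.1 CPM of Usp18 over the pools, and cells with a sum of 3, just inside, 167 and 56.2 CPM. Cells with a sum over 10 averaged 1958 and 555 CPM, and cells with a sum of 0 averaged 40.2 and 13.0 CPM. The median sum of the interferon-high cells was 6 to 8 UMIs per pool and the highest was 89.

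Some receptor sequences occur in more than 1 pool. WT-1 shared 58 receptor sequences with 5XFAD-1, 41 with PS19 and 3 with PS-5X, and PS19 shared 6 with PS-5X, while no other pair shared any. Of the 31 interferon-high cells of WT-1, 10 carried a shared receptor, as did 30 of 142 in 5XFAD-1, 13 of 717 in PS-5X and 5 of 50 in PS19. Cell barcodes shared by a pair of pools numbered 1 to 23. The share of interferon-high cells and the gene comparisons were also computed without the WT-1 cells that share a barcode or receptor. Without them 854 genes differed between interferon-high and interferon-zero cells, against 901 with them (below). The mean differences tested within pools were then 3.66 points for CD8 against CD4, 5.47 for expansion and 3.796 for Pdcd1, on the same side of the threshold as with all cells.

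Interferon-high cells were a larger share of CD8 T cells in every amyloid pool than in any pool without amyloid, and the share was highest in PS-5X. They were 142 of 1631 CD8 T cells in 5XFAD-1, 91 of 1382 in 5XFAD-2 and 717 of 4376 in PS-5X, compared with 31 of 528 in WT-1, 40 of 2228 in WT-2 and 50 of 1502 in PS19. The shares were 8.71% (95% exact binomial interval 7.38 to 10.2), 6.58% (5.33 to 8.02) and 16.4% (15.3 to 17.5) in the amyloid pools. They were 5.87% (4.02 to 8.23), 1.80% (1.29 to 2.44) and 3.33% (2.48 to 4.37) in WT-1, WT-2 and PS19. The intervals cover counting error only, and those of 5XFAD-1 and 5XFAD-2 both overlap that of WT-1. The mean share was 10.6% ± 5.16 in amyloid pools and 3.67% ± 2.06 in pools without amyloid (SD, n = 3 each), a difference of 6.89 percentage points. In a 2-sided exact permutation test over pools p was 0.1, the smallest value that 3 against 3 can give, so the test cannot pass 0.05 in this design. Adjusted over the 5 tests of shares in this report, that p was 0.167.

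The difference kept its direction within each sequencing run. It was 7.95 points in the common run and 4.79 points in the separate run, where 5XFAD-2 is set against WT-2. PS-5X exceeded PS19, with the same number of mice and the same tau transgene, by 13.1 points, and 5XFAD-1 exceeded WT-1 by 2.84 points. Without PS-5X the difference was 3.98 points. Without the shared WT-1 cells, the WT-1 share was 5.45% and the difference 7.03 points.

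A cell with more UMIs passes a fixed sum more easily, so every cell was also thinned to 3000 UMIs and shallower cells (51 to 412 per pool) were left out. The shares were then 4.67%, 4.66% and 10.2% in 5XFAD-1, 5XFAD-2 and PS-5X, compared with 4.11%, 1.28% and 2.14% in WT-1, WT-2 and PS19. In this 1 random draw the groups did not overlap, but 5XFAD-2 (59 of 1266 cells) and WT-1 (18 of 438) lay close. The difference was 4.01 points (p = 0.1, exact permutation test). It was larger than 4 points for cells with a sum of 5 or more too (4.33). With a sum of 2 or more, WT-1 (10.0%) exceeded 5XFAD-2 (8.97%). With 5 or more UMIs of 7 other interferon genes (Isg15, Usp18, Irf7, Oasl2, Cmpk2, Oas3, Rtp4) in place of the 4, the shares were 17.7%, 12.5% and 24.0% in amyloid pools and 12.7%, 8.12% and 10.3% in pools without amyloid. WT-1 again exceeded 5XFAD-2, and the difference was 7.69 points (p = 0.2, exact permutation test).

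**Figure D1:**
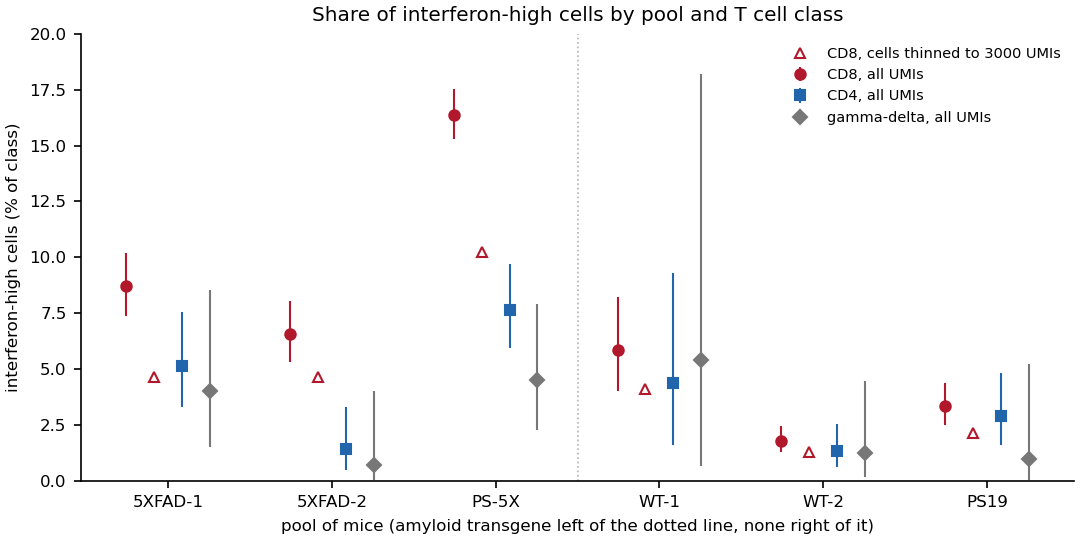
Interferon-high cells as a percent of each T cell class, by pool, with amyloid pools left of the dotted line; filled symbols use all UMIs with 95% exact binomial intervals, and open triangles are CD8 T cells thinned to 3000 UMIs. CD8 shares run from 6.58% to 16.4% in the amyloid pools and from 1.80% to 5.87% in the others.

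Interferon-high cells were more frequent among CD8 than among CD4 T cells in all 6 pools. The CD8 shares given above stand against CD4 shares of 5.14%, 1.44% and 7.66% in 5XFAD-1, 5XFAD-2 and PS-5X and 4.38%, 1.35% and 2.89% in WT-1, WT-2 and PS19. The mean difference was 3.30 points (p = 0.031, 2-sided exact sign-flip permutation test over 6 pools, the smallest value possible, and 0.0781 adjusted over the 5 tests). It was 5.81 points over the amyloid pools and 0.79 points over the other pools, and that gap was not tested. CD8 T cells had more UMIs, with medians of 5750 to 7196.5 per pool against 5059 to 6795 in CD4 T cells, and thinned to 3000 UMIs the difference was 1.95 points, still positive in 6 of 6 pools. Among γδ T cells 1 to 11 cells per pool passed the sum, 0.73% to 5.41%. CD4 and γδ shares overlapped between amyloid pools and pools without amyloid.

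Outside the 4 genes of the rule, interferon-high cells differed from interferon-zero cells of the same pools in 901 of 10123 genes, 571 higher and 330 lower (8.9%, 5.64% and 3.26% of the genes tested). UMIs were summed per pool for each kind of cell and compared with edgeR's quasi-likelihood test with pool as a block, at a Benjamini-Hochberg adjusted p of 0.05, and all adjusted p values below are from edgeR. The median log2 fold change over all genes was −0.01. The cells were split by 4 interferon genes, so a rise of other genes that respond to the same signal describes the cells and is no independent evidence of it.

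Type I interferon response genes were higher almost without exception. Of 65 genes listed, 61 were tested, 60 rose, none fell, and the list median was 2.32 on the log2 scale. Isg15, an ubiquitin-like modifier, had 829, 1284 and 883 CPM in interferon-high cells of 5XFAD-1, 5XFAD-2 and PS-5X and 891, 1113 and 745 CPM in those of WT-1, WT-2 and PS19, against 34.5 to 46.4 CPM in the 6 interferon-zero sums. The lowest interferon-high sum stood far above the highest interferon-zero sum (log2 fold change 4.55 ± 0.10 SE). Usp18, which removes Isg15 from proteins and damps receptor signalling, had 239 to 314 CPM in interferon-high and 8.50 to 17.5 CPM in interferon-zero cells (log2 4.34 ± 0.13). The transcription factor Irf7 rose less, by 2.48 ± 0.09. Cmpk2, the neighbour of Rsad2 on chromosome 12 and a nucleotide kinase, rose by 5.01, and the antiviral synthetase-like genes Oasl1 and Oasl2 by 4.95 and 4.50. The RNA sensors Dhx58 and Ifih1 rose by 3.52 and 3.40, and Slfn5, Gbp10, Ube2l6, Iigp1 and Rtp4 by 3.57 to 3.83. Gm47242, a gene model, rose by 4.58. Ly6a, which encodes the surface protein Sca-1, rose by 2.62, to a mean of 1097 CPM in interferon-high cells, against 179 CPM in interferon-zero cells, and Bst2, which encodes tetherin, by 2.53. Only Pnp of the 61 did not pass (0.18, adjusted p = 0.455), and Ifitm3, at 2.77, was higher in 5 of 6 pools and had no UMI in the 50 interferon-high PS19 cells. The near-identical genes Ifit3 and Ifit3b, and Ifit1 with Ifit1bl1, can share reads, so their separate counts are uncertain.

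Cxcl10, a chemokine that draws Cxcr3-bearing T cells, showed the highest fold change of the named genes. It had 369, 886 and 680 CPM in interferon-high cells of 5XFAD-1, 5XFAD-2 and PS-5X and 140, 856 and 505 CPM in those of WT-1, WT-2 and PS19, against 3.49 to 17.9 CPM in interferon-zero cells (log2 6.15 ± 0.15, adjusted p = 1.05e-21). Its UMIs were concentrated in few cells. A Cxcl10 UMI was present in 287 of the 1071 interferon-high cells (26.8%), and the 10% of cells with most of it held 88.8% of its UMIs, with up to 216 in a cell. Isg15 was present in 82.2% of the cells, and the top 10% held 38.5% of its UMIs. Interferon-high cells, 9.20% of the CD8 T cells, held 87.5% of all Cxcl10 UMIs of CD8 T cells and 65.3% of those of Isg15. For Isg15 that share was 59.9%, 67.2% and 74.9% in 5XFAD-1, 5XFAD-2 and PS-5X and 63.0%, 34.0% and 36.9% in WT-1, WT-2 and PS19, and for Cxcl10 it was 65.1% to 91.9% per pool. These shares also depend on how many cells are interferon-high. In the same order of pools, those were 8.71%, 6.58% and 16.4% and 5.87%, 1.80% and 3.33% of CD8 T cells. Among interferon-zero cells 1.19% to 2.31% per pool had a Cxcl10 UMI.

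Interferon gamma response and antigen presentation genes moved the same way with smaller steps. Of 42 listed, 38 were tested, 34 rose and none fell, with a median of 0.84. Interferon-inducible GTPase genes were among the largest steps, with Iigp1 as above, Gbp6 at 3.08, Tgtp1 at 2.44, Irgm1 at 2.08 and Gbp2 at 1.79. Class I presentation genes rose by less, Tap1 (peptide transporter) by 0.82 and H2-K1 by 0.35, at 4182 CPM in interferon-high and 3278 CPM in interferon-zero cells. The 4 that did not pass were Irf8 and the class II genes Cd74, H2-Aa and H2-Ab1. Socs1 and Irf1, a feedback inhibitor and a transcription factor of the pathway, rose by 0.86 and 0.63.

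The receptors of the pathway did not rise with it. Ifnar1 had 95.3 to 127 CPM in interferon-high and 103 to 128 CPM in interferon-zero cells (log2 −0.02 ± 0.08, edgeR adjusted p = 0.976), and Ifnar2 had 0.11 ± 0.09 (adjusted p = 0.618). Ifngr1 was −0.13 (adjusted p = 0.125) and lower in 6 of 6 pools, while Ifngr2 fell by 1.60, to 9.17 CPM in interferon-high, against 28.0 CPM in interferon-zero cells. Of 19 receptor and signalling genes tested, 5 rose (Adar, Samhd1, Irf2, Jak2 and Tmem173) and 1 fell. Ifng, the gamma interferon gene, rose by 0.60 and was higher in 4 of 6 pools. It did not pass in DESeq2 (0.52, adjusted p = 0.177).

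**Figure D2:**
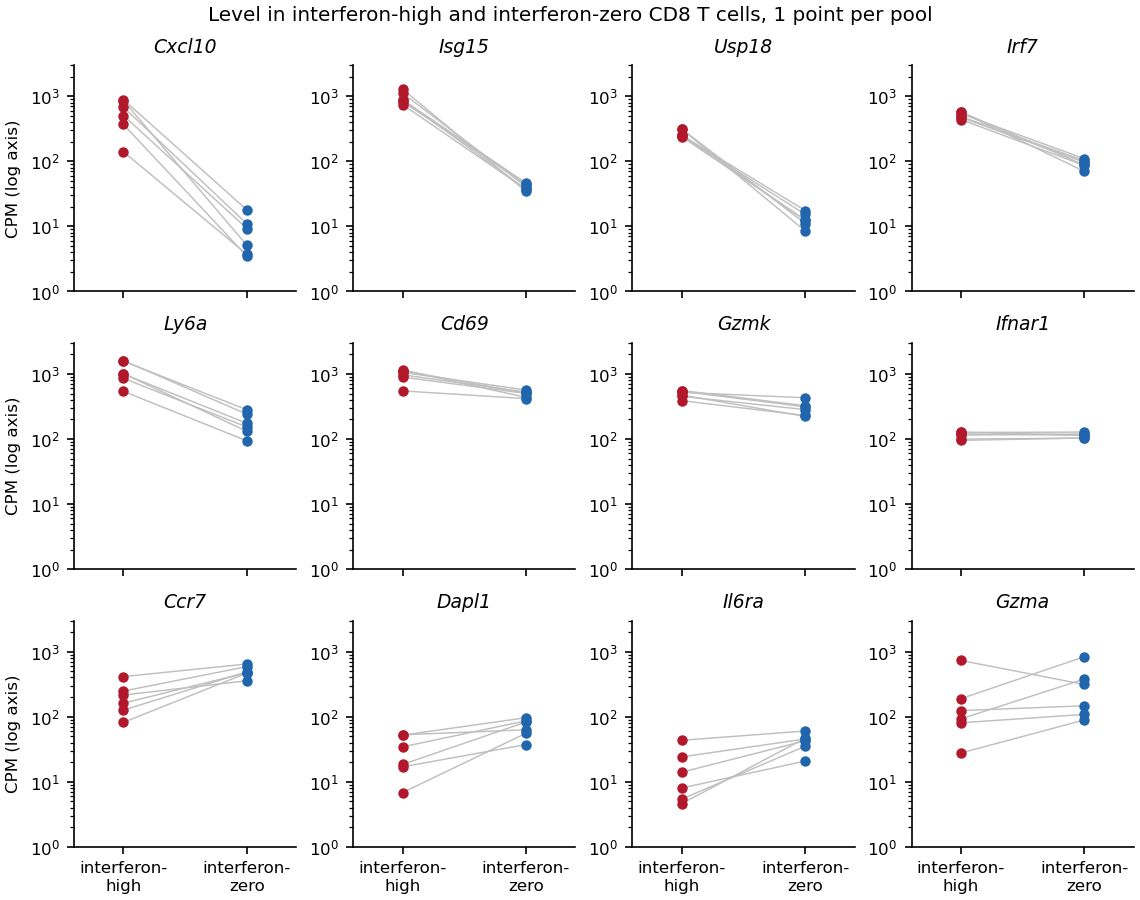
CPM of 12 genes on a log axis in interferon-high (red, left) and interferon-zero (blue, right) CD8 T cells, 1 point per pool and a line joining the sums of a pool. The 4 interferon response genes and Ly6a do not overlap between the 2 kinds of cell, Ifnar1 lies level, and Ccr7, Dapl1 and Il6ra are lower in interferon-high cells of every pool.

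Genes of naive and central memory T cells were lower in interferon-high cells. All 16 listed genes were tested and all 16 fell, with a median of −1.14. Ccr7, the lymph node homing receptor, had 215, 126 and 81.8 CPM in interferon-high cells of 5XFAD-1, 5XFAD-2 and PS-5X and 161, 247 and 413 CPM in those of WT-1, WT-2 and PS19. In interferon-zero cells it had 356, 491 and 468 CPM and 473, 589 and 645 CPM in the same pools (log2 −1.48 ± 0.16). Every pool showed the fall, although the ranges overlapped. Il6ra, an interleukin 6 receptor chain, fell by 1.98 and Dapl1 by 1.87. Of the other named falls, Cd55, which encodes complement decay-accelerating factor, fell by 1.77, Plaur by 1.52, Actn1 by 1.44, Rflnb by 1.38 and Cmah by 1.37.

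The make-up of the cells moves with these genes. Cells with 2 or more UMIs of Ccr7, Dapl1, Actn1, Igfbp4 and Lef1 (naive-type) were 28.2%, 21.98% and 20.9% of interferon-high cells in 5XFAD-1, 5XFAD-2 and PS-5X and 35.5%, 42.5% and 40.0% in WT-1, WT-2 and PS19. They were 35.0%, 47.8% and 45.3% and 51.6%, 52.4% and 62.1% of interferon-zero cells in the same pools. With naive-type cells left out on both sides, 516 of 9247 genes tested were called, 430 higher and 86 lower (4.65% and 0.93%). Then 58 of 59 type I interferon genes rose, while 4 of 13 tested naive and central memory genes fell, a list that includes the 5 used to leave cells out. Ccr7 was then at −0.45 (edgeR adjusted p = 0.685). Within clones of 2 or more cells 288 of 8159 genes tested were called (2.94% higher and 0.588% lower), and 58 of 59 type I interferon genes rose.

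Effector, inhibitory and residency genes showed smaller steps, fewer of which passed with naive-type cells left out. Of 17 inhibitory receptor and exhaustion genes 7 rose and none fell, led by Cd274, which encodes PD-L1, at 1.49, with Lag3 at 0.80, Eomes at 0.64 and Pdcd1 at 0.41. Of 22 residency and homing genes 11 rose and 2 fell. Cd69, an early activation and retention marker that interferon also induces, rose by 0.94, Cxcr6 by 0.45 and Cxcr3 by 0.29, while S1pr5 and Cx3cr1, markers of circulating effector cells, fell by 2.17 and 1.59. Itgae, the CD103 chain, was −0.25 (adjusted p = 0.496). Of 18 cytotoxic genes 6 rose and 4 fell, Gzmk at 0.71 and Gzmb at 0.82 among the rises and Klrg1 at −1.19 among the falls. Gzmb was higher in 4 of 6 pools and did not pass in DESeq2 (adjusted p = 0.417). Gzma did not pass (−0.73, adjusted p = 0.0740), and without the shared WT-1 cells it fell by 1.10 (edgeR adjusted p = 0.000157). With naive-type cells left out, 2 of 17 inhibitory genes rose, 2 of 22 residency genes rose and 3 fell, and 1 of 18 cytotoxic genes rose and 6 fell. Over all 9247 genes tested there, 4.65% rose and 0.93% fell. In that comparison Pdcd1 was at 0.048 (edgeR adjusted p = 0.932), Cxcr6 at 0.070, Lag3 at 0.39, Gzmb at 0.40 and Ifng at 0.27, none of which passed, and Itgae fell by 0.75.

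Other gene groups differed in how many of their genes moved. Of 15 early T cell receptor response genes 8 rose, Tnfrsf9 by 0.71 and Myc by 0.50 among them, and 2 of 15 with naive-type cells left out. Of 14 chemokine and cytokine genes 7 rose, with Tnfsf10, which encodes TRAIL, at 1.28 and Xcl1 at 0.61, and the abundant Ccl5 was at −0.08 (adjusted p = 0.519). Of 20 dissociation and heat shock genes 7 rose and 3 fell, Hspa1b by 0.77 at most. No cell cycle gene of 19 rose and 2 fell, and 6 of 13 mitochondrially encoded genes fell, mt-Nd1 by 0.20, and none of the 13 without PS-5X or without naive-type cells. All 4 tested NK cell genes fell, Klrb1c by 3.45 and Klra7 by 2.35, and the summed NK list had 0 to 75.9 CPM in interferon-high and 32.8 to 108 CPM in interferon-zero cells. The B cell list had 62.4 to 144 CPM in interferon-high and 120 to 308 CPM in interferon-zero cells, and 2 of its 3 tested genes fell, with Cd79a and Ms4a1 at 0 in the interferon-high cells. The part of these in the results was not tested.

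**Figure D3:**
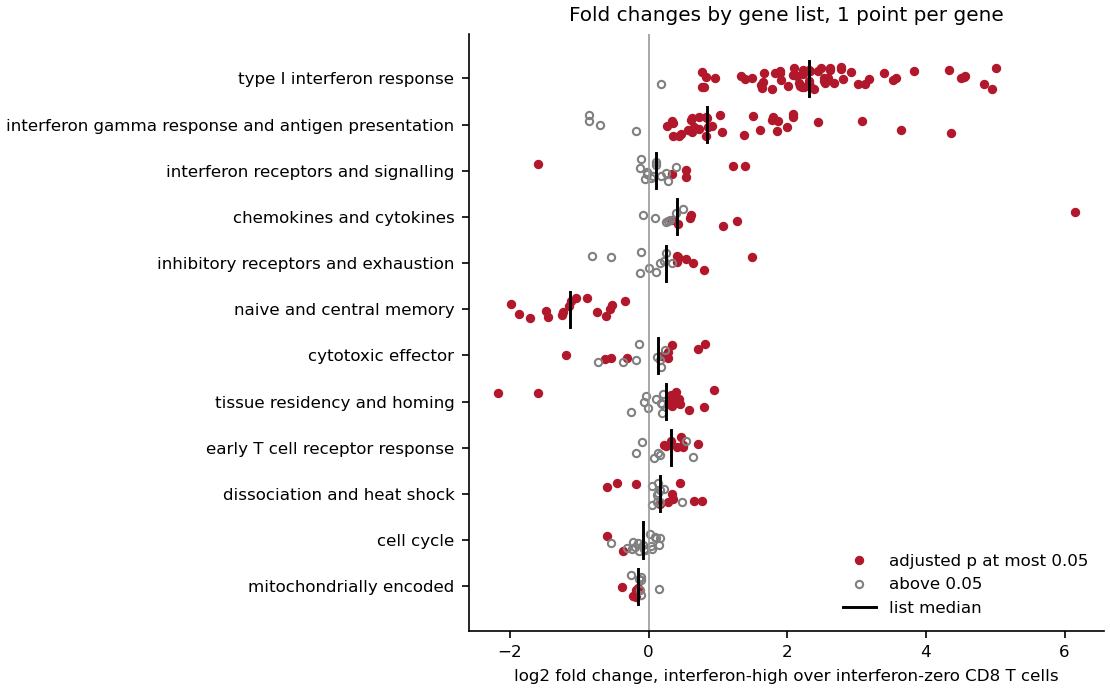
Log2 fold change of interferon-high over interferon-zero CD8 T cells for each tested gene of 12 gene lists, with genes at an adjusted p of at most 0.05 filled and the list median as a bar. The type I interferon list lies right of 0 with a median of 2.32, and the naive and central memory list lies left of it with a median of −1.14.

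Interferon-high cells had the higher median depth in 5 of 6 pools, PS19 being the exception. Interferon-high cells had median UMI counts of 7667, 6868 and 6715 in 5XFAD-1, 5XFAD-2 and PS-5X and 8052, 5807.5 and 6721 in WT-1, WT-2 and PS19, against 6466, 6375 and 6086 and 6784, 5710 and 7141 in interferon-zero cells. Against 1071 interferon-zero cells matched in depth, 577 of 5873 genes tested were called (9.82%, 400 higher and 177 lower), of which 531 were among the 901, with 58 of 59 type I interferon genes higher and 16 of 16 naive and central memory genes lower. Without PS-5X, the largest pool, 499 of 9117 genes tested were called, 400 higher and 99 lower (4.39% and 1.09%). Doublet scores marked 2.82%, 3.30% and 5.997% of interferon-high cells in 5XFAD-1, 5XFAD-2 and PS-5X and none in the other pools. Among interferon-zero cells they marked 1.48%, 1.05% and 4.01%, and 0.716%, 2.73% and 1.23% in WT-1, WT-2 and PS19. Without the marked cells 878 genes were called.

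Across single CD8 T cells, the genes whose log-scaled levels followed the 4-gene sum most closely were also interferon response genes. Over 8187 genes the mean within-pool Pearson correlation was highest for Isg15 (0.56), Usp18 (0.53), Rtp4 (0.53) and Cmpk2 (0.50). Zbp1, Gbp6, Isg20, Ifih1, Bst2 and Irf7 followed at 0.40 to 0.44. The cells of a pool share a library and differ in depth, and these values are a description over 11647 cells.

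Interferon-high cells were spread over many clones. Counted by receptor, the 641 cells with a receptor in PS-5X fell into 380 clones, the 130 in 5XFAD-1 into 110 and the 78 in 5XFAD-2 into 67, against 30 cells in 30 clones in WT-1, 38 in 33 in WT-2 and 50 in 49 in PS19. Clones of 2 or more cells that held an interferon-high cell nearly always held other CD8 T cells too. Such mixed clones were 30 of 31 in 5XFAD-1, 27 of 28 in 5XFAD-2, 123 of 134 in PS-5X, 5 of 5 in WT-1, 10 of 10 in WT-2 and 13 of 13 in PS19.

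The share of cells in clones of 2 or more did not differ between the 2 kinds of cell beyond the spread of the pools. Among interferon-high cells it was 39.2%, 50% and 61.6% in 5XFAD-1, 5XFAD-2 and PS-5X and 16.7%, 39.5% and 28.0% in WT-1, WT-2 and PS19. Among interferon-zero cells it was 41.7%, 38.5% and 43.5% and 19.6%, 33.0% and 24.3%. The mean difference was 5.74 points, positive in 4 of 6 pools (p = 0.156, 2-sided exact sign-flip permutation test, 0.195 adjusted over the 5 tests). With naive-type cells left out it was −4.86 points, positive in 1 of 6 pools (p = 0.188, same exact test).

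Clone mates of an interferon-high cell were interferon-high themselves in 14.9%, 10.8% and 27.6% of cases in 5XFAD-1, 5XFAD-2 and PS-5X and in 0, 7.48% and 0.62% in WT-1, WT-2 and PS19. Cells of other clones of 2 or more CD8 T cells were interferon-high in 8.04%, 7.90% and 19.9% and in 4.53%, 1.95% and 3.85% in the same pools. Clones of 1 cell were left out on both sides. The mean difference was 2.54 points, with 4 of 6 pools higher (p = 0.312, 2-sided exact sign-flip permutation test, also 0.312 adjusted over the 5 tests). Without the shared WT-1 cells WT-1 gives no value, and the difference over the other 5 pools was 3.95 points, with 4 of 5 pools higher (p = 0.188, same exact test). WT-1 and PS19, the pools below 0, had 5 and 14 interferon-high cells in clones of 2 or more.

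Single large clones of PS-5X differed widely in how many of their cells were interferon-high. Over its 24 clones of 15 or more CD8 T cells the share ran from 2.27% to 50% with a median of 18.3%. The largest clone, of 363 cells, had 97 interferon-high cells (26.7%, 95% exact binomial interval 22.2 to 31.6) and 176 with a sum of 0. A clone of 20 cells had 10 (50%, interval 27.2 to 72.8) and a clone of 44 had 1 (2.27%, interval 0.0575 to 12.0). The junctions of the beta chains of these 3 clones are printed from the deposited receptor table, since the clones mark the ends of the range, with the V and J segments as the table names them. They use TRBV29 and TRBJ2-7, TRBV1 and TRBJ1-4, and TRBV12-2+TRBV13-2 and TRBJ2-7, in the order printed.
largest clone, 97 of 363 cells interferon-high: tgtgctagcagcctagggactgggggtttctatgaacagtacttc
clone with the highest share, 10 of 20 cells interferon-high: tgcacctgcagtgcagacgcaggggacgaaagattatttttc
clone with the lowest share, 1 of 44 cells interferon-high: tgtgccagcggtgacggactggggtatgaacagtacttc
In the other pools the largest clone held 10 of 128 interferon-high cells (5XFAD-1), 3 of 54 (5XFAD-2), 0 of 18 (WT-1), 2 of 50 (WT-2) and 2 of 24 (PS19). The largest clones of 5XFAD-1 and WT-1 have identical alpha and beta junctions and segments, and that of PS19 is also marked as shared between pools. Whether these are separate clones of each pool was not tested. Of the 9 clones of 15 or more cells in WT-2, 6 had none. Clones could also be set aside. With the largest clone of each pool left out, interferon-high cells were 6.03 points more frequent in amyloid pools, and with each clone counted once they were 9.17%, 5.75% and 13.3% in 5XFAD-1, 5XFAD-2 and PS-5X, compared with 7.12%, 1.66% and 3.37% in WT-1, WT-2 and PS19. In that count WT-1 exceeded 5XFAD-2 (p = 0.2 in both cases, exact permutation test).

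**Figure D4:**
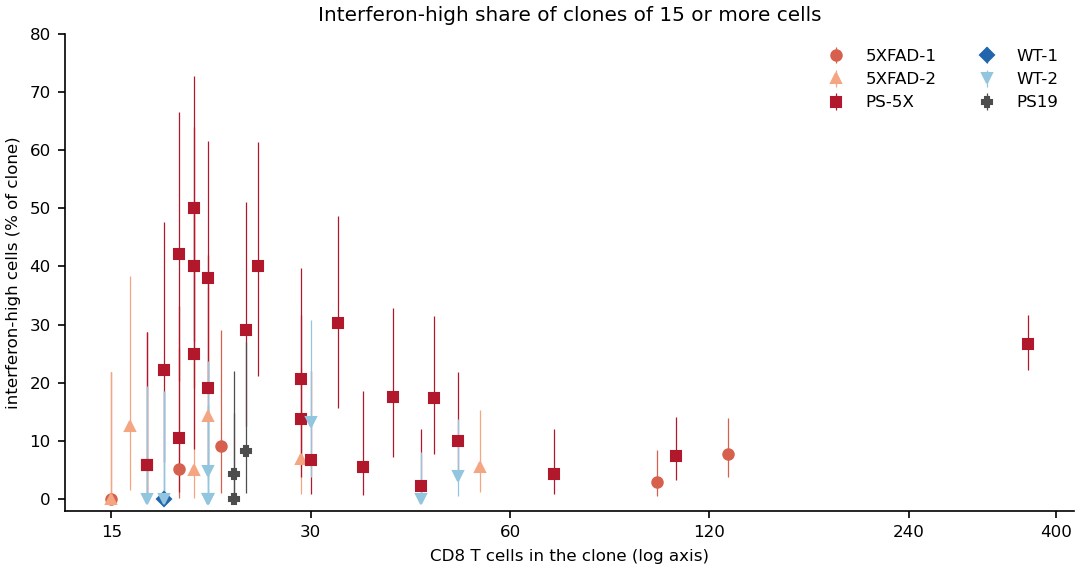
Percent of interferon-high cells in each clone of 15 or more CD8 T cells against clone size on a log axis, by pool, with 95% exact binomial intervals. PS-5X clones spread from 2.27% to 50%, while the clones of the other pools stay at or below 14.3%.

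Cells with a Pdcd1 UMI, the gene of the receptor PD-1, were interferon-high more often than cells without one in all 6 pools. The shares were 9.15%, 9.54% and 22.1% of Pdcd1-positive cells in 5XFAD-1, 5XFAD-2 and PS-5X and 8.62%, 2.94% and 3.86% in WT-1, WT-2 and PS19. Among Pdcd1-zero cells they were 8.34%, 4.78% and 12.5% and 4.52%, 1.39% and 3.14%. The mean difference was 3.59 points (p = 0.031, 2-sided exact sign-flip permutation test, 0.0781 adjusted over the 5 tests), and thinned to 3000 UMIs it was 2.77 points, positive in 6 of 6 pools. With naive-type cells left out it was 1.44 points, positive in 5 of 6 pools (p = 0.156, same exact test).

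Within interferon-high cells, no type I interferon gene passed the test between amyloid pools and the others. In a comparison of the 3 amyloid with the 3 other pools, with tau as a second term, none of the 61 tested type I interferon genes passed, at a median of −0.07, with 12 at an unadjusted p under 0.05 (19.7%, against 7.12% of all 5951 genes tested). DESeq2 also called none, with 5 under 0.05. Isg15 had 842, 1304 and 914 CPM in interferon-high cells of 5XFAD-1, 5XFAD-2 and PS-5X, compared with 943, 1149 and 768 CPM in WT-1, WT-2 and PS19 (log2 0.11 ± 0.16, adjusted p = 0.963). Cxcl10 had 375, 900 and 705 CPM, against 149, 883 and 521 CPM (0.34 ± 0.34, adjusted p = 0.915). In both genes the groups overlapped. The groups did not overlap in 9 of the 61 genes, 6 with amyloid pools above and 3 with amyloid pools below (9.84% and 4.92%, against 6.28% and 6.47% of all genes). Isg20, an antiviral exonuclease, had 417, 453 and 460 CPM in interferon-high cells of 5XFAD-1, 5XFAD-2 and PS-5X and 282, 266 and 357 CPM in those of WT-1, WT-2 and PS19 (0.55 ± 0.16, adjusted p = 0.185). Ifitm3, a restriction factor of viral entry, had 58.9, 93.7 and 119 CPM, against 33.4, 42.5 and 0 CPM (1.93 ± 0.44, adjusted p = 0.0605). Isg20 and Ifitm3 were named after their values were seen. Both come from the 6 genes with amyloid pools above, and none of the 3 with amyloid pools below is printed. These CPM are scaled among interferon-high sums alone and differ slightly from those above.

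Over all genes, 11 of 5951 passed (0.185%), 1 higher (0.0168%) and 10 lower (0.168%) in amyloid pools. With sequencing run as the replicate block 49 of the 5951 passed (0.823%), the 11 among them. They included the interferon genes Ly6a (0.78) and Ifitm3 (1.96) as higher and Ifi209 and Ifi213 as lower. Adding run leaves fewer residual degrees of freedom than the 3 of the fit without it. Ifitm3 had no UMI in the 50 interferon-high PS19 cells. Ccl3, an inflammatory chemokine, was the gene that rose in the fit without run. It had 92.4, 167 and 170 CPM in interferon-high cells of 5XFAD-1, 5XFAD-2 and PS-5X, compared with 14.9, 10.6 and 68.5 CPM in WT-1, WT-2 and PS19 (log2 2.13 ± 0.33, adjusted p = 0.00303). Of the 10 that fell, 7 belong to the naive and central memory list of 14 tested genes, whose median was −1.05. Actn1 had 38.9, 40.6 and 15.4 CPM, against 92.8, 117 and 131 CPM (log2 −2.08 ± 0.29). Dapl1, Nsg2, S1pr1, Lef1 and Tcf7 fell by 1.03 to 1.98, and Ighm and Atp1b3 by 1.17 and 0.77. Gzma, which encodes granzyme A, had 94.2, 28.1 and 83.4 CPM, against 772, 195 and 128 CPM (−2.11 ± 0.41, adjusted p = 0.0206). This call is lost without the shared WT-1 cells (−1.21, edgeR adjusted p = 0.0893) and in DESeq2. Groups did not overlap in these 11 genes, as in 6.28% of all tested genes with amyloid pools above and 6.47% with amyloid pools below. Of the 29 genes listed for naming in every comparison, 27 were tested, 2 fell, Gzma among them, and the other 25 lay between −1.07 and 1.93.

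The naive-type share moves with these genes, being lower in interferon-high cells of amyloid pools, as given above. With naive-type cells left out 1 gene passed, Gzma (−3.10, edgeR adjusted p = 0.0152). Ccl3 was then at 1.56 (edgeR adjusted p = 0.508). Without PS-5X 2 genes passed (Ccl3 and Gzma) and without PS19 1 (Ccl3), with none of the naive and central memory list in either. Without 5XFAD-2 47 passed (0.915% of the genes tested), and without the shared WT-1 cells 23 (0.385%). The sums of the pools without amyloid rest on 31, 40 and 50 cells. In simulated data for this comparison, 60% of 100 genes set to a log2 change of 1 and 91% of 100 set to 2 were recovered. The changed genes were drawn from those at 20 CPM or more. All genes were given the same spread and no tau effect, so these values do not give the recovery over all genes tested. The difference between interferon-high and interferon-zero cells itself differed between amyloid pools and the others for 6 of 10705 genes (0.056%, with 0.0374% higher and 0.0187% lower), none of them an interferon response gene of the type I list, and DESeq2 called 0.

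**Figure D5:**
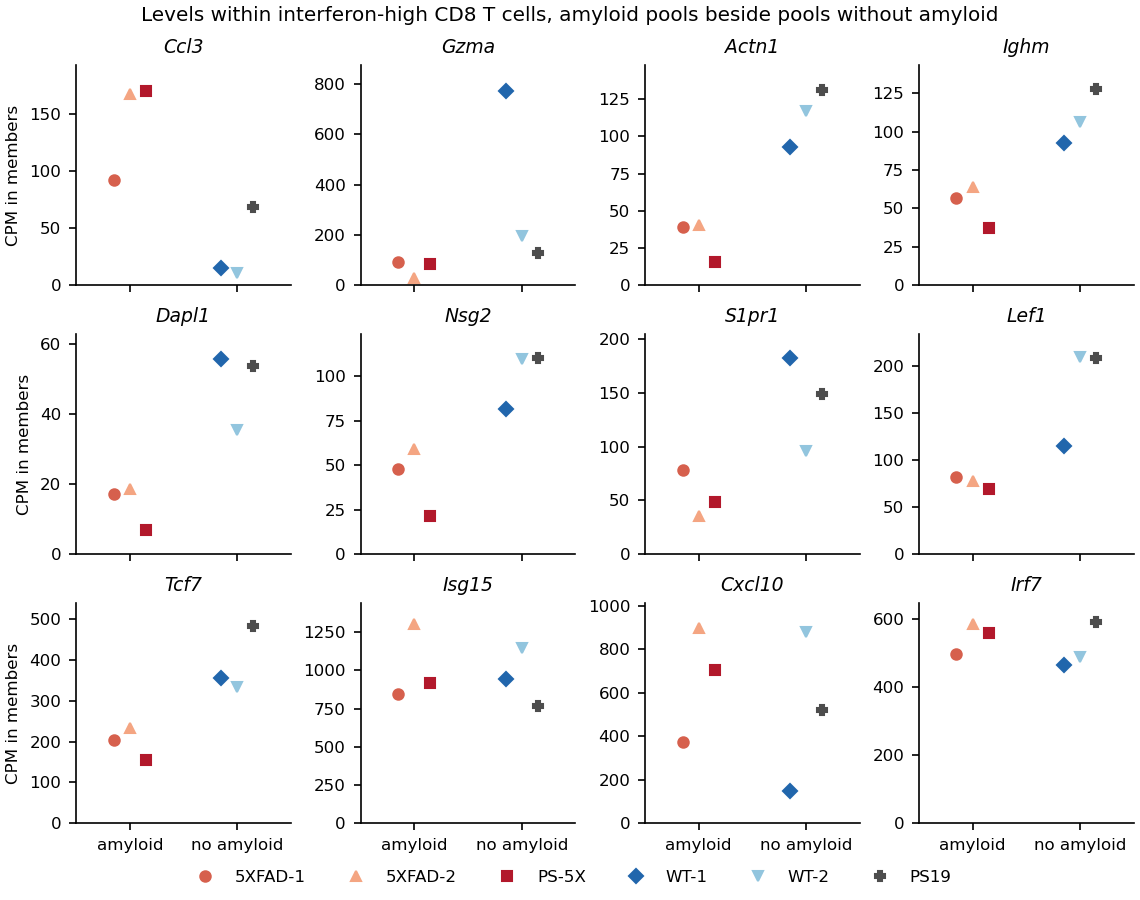
CPM of 12 genes in interferon-high CD8 T cells of amyloid pools (left) and pools without amyloid (right), 1 symbol per pool, on linear axes from 0. Ccl3 is higher and Gzma, Actn1, Ighm, Dapl1, Nsg2, S1pr1, Lef1 and Tcf7 are lower in all 3 amyloid pools, while Isg15, Cxcl10 and Irf7 overlap.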

How the data were processed

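T cells of 6 mouse pools were measured with 10x 5' gene expression and T cell receptor libraries. Cell Ranger 6.0.1 is named in the submitters' processing notes and per the file headers. The notes also list the builds GRCm38 and mm10. The deposited matrix holds UMI counts per gene and barcode, and the deposited receptor tables list contigs with UMI counts and clonotypes. Pools were read from barcode suffixes through the pool name of each contig. Whether depth was equalised when pools were joined is not given in the sources used here.

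UMIs were summed per pool in interferon-high and interferon-zero CD8 T cells (273358 to 5016059 and 2873574 to 17232921 UMIs) and fitted with edgeR 4.0.16 (TMM, filterByExpr, quasi-likelihood, adjusted p of 0.05 over all genes). Interferon-high cells were set against interferon-zero cells with pool as block (5 residual degrees of freedom), amyloid was fitted with tau as covariate (3), and their interaction with pool as block (4). P-values measure the spread between pools in the amyloid comparisons. Where pool is a block or a pair, they measure how differences within pools vary from pool to pool. Gene names are those of the deposited features. The members and gene lists were chosen with earlier results of these data known. Named were the 14 largest rises and 8 largest falls that passed, went the same way in 6 of 6 pools and averaged at least 20 CPM, without receptor segments, up to 6 called genes each way between amyloid groups, and 29 listed genes. Some of these are not reported here. The sum of other interferon genes uses 7, without Mx1.

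Single shares were tested by exact permutation over 3 against 3 pools or exact sign flips over 6 pools (smallest p 0.1 and 0.031). Intervals are Clopper-Pearson. Doublets were scored per pool with Scrublet in scanpy 1.11.5, whose automatic threshold marked 0 to 1.05% of barcodes, so the highest scores up to 0.8% per 1000 barcodes were left out as an alternative. The likeness of genes to the 4-gene sum used log counts scaled to 10000 UMIs per cell, for genes detected in at least 5% of cells. Replicate number 2 marks the separate sequencing run, per the labels, so runs served as a block in an alternative. Deviations of same-numbered WT and 5XFAD sums correlated at 0.07 over 5955 genes. Other alternatives were DESeq2 1.42.0, its size factors, no filter, each pool left out, other thresholds, depth matching and thinning, doublets, shared cells, naive-type cells and clones.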

Additional observations from a re-analysis of the deposited data

Results flagged for a closer look

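The difference between interferon-high and interferon-zero CD8 T cells itself differed between amyloid pools and pools without amyloid for 6 of 10705 genes (0.056%), by an interaction term in edgeR with adjusted p values of 0.00168 to 0.0367. Igfbp4, a gene of naive T cells, had an interaction of −2.57 on the log2 scale. It had 7.12, 7.68 and 8.64 CPM in interferon-high cells of 5XFAD-1, 5XFAD-2 and PS-5X and 3.46, 116 and 94.7 CPM in those of WT-1, WT-2 and PS19. Against these stand 29.1, 93.9 and 60.4 CPM and 52.5, 95.8 and 104 CPM in interferon-zero cells of the same pools. WT-1 thus lay with the amyloid pools, on 1 UMI. Actn1, an actin cross-linker, had an interaction of −1.47, with 38.3, 40.0 and 14.9 CPM in interferon-high cells of the amyloid pools and 86.4, 113 and 126 CPM in those of WT-1, WT-2 and PS19. In interferon-zero cells it had 83.2, 150 and 91.8 CPM and 138, 175 and 177 CPM in the same pools.

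The other 4 rest on sums at or near 0 in interferon-high cells of the pools without amyloid, so their fitted values are no bound. Cd74, the class II invariant chain, had 2, 181 and 134 UMIs in interferon-high cells of 5XFAD-1, 5XFAD-2 and PS-5X and none in WT-1, WT-2 and PS19 (fitted 12.35). Klk1, a tissue kallikrein, had 27 UMIs, all in 5XFAD-2 (fitted 11.19). The receptor segments Trbv15 and Trav8n-2 had fitted values of 6.49 and 4.08, with 0 or 1 Trbv15 UMI and 0 to 2 Trav8n-2 UMIs in each pool without amyloid. DESeq2 called none of the 10705, and without WT-2 edgeR called none. Without the WT-1 cells that share a barcode or receptor, 7 of 10466 genes were called, these 6 among them.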

How the results depend on the processing

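The difference in interferon-high share was positive under all 21 alternatives run, from 3.93 to 8.88 points, and none could pass 0.05 in this design (blocked by sequencing run as the replicate block, 6.37 points). Leaving out each pool gave 3.98 to 8.88 points for that share, 3.27 to 7.48 for expansion, 1.52 to 3.95 for clone mates, 2.22 to 3.88 for CD8 against CD4 and 2.39 to 4.17 for Pdcd1. With 5 pools the smallest possible p is 0.0625, so the last 2 could not pass. CD8 against CD4 was 1.91 points (p = 0.0625, exact sign flips) with a sum of 5 or more, positive in 5 of 6 pools. Pdcd1 was 1.44 points, and expansion turned to −4.86 points, without naive-type cells. The thinned share without shared WT-1 cells, the clone subsets of the share, and the non-naive clone mate, Pdcd1 and amyloid comparisons, and the interaction without shared WT-1 cells (7 calls), were chosen after seeing the data.

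Interferon-high against interferon-zero calls numbered 577 with depth-matched cells, 516 without naive-type cells, 288 in clones of 2 or more, 617 with no replicate block, 645 in DESeq2, and 499 to 906 with a pool left out. Amyloid calls within interferon-high cells numbered 5 in DESeq2, 64 with no filter, 49 with the replicate block, 23 without shared WT-1 cells, 1 without naive-type cells, and 1 to 47 with a pool left out. Interaction calls numbered 0 in DESeq2, 40 with no filter, and 0 to 33 with a pool left out. The causes were not tested.

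Single genes that turned sign all failed the test on both sides, except Cxcr3. Ifnar1 was at 0.019 with no replicate block, 0.18 depth-matched, 0.010 with a sum of 5 or more, 0.0054 without doublets, 0.047 without naive-type cells, and between −0.042 and 0.0026 with a pool left out. In clones of 2 or more, Ifnar2 was at −0.12 and Cxcr3 at −0.048. Between amyloid groups, Isg15 was at −0.10 and Cxcl10 at −0.024 without naive-type cells. With a pool left out, Isg15 lay between −0.065 (without 5XFAD-2) and 0.29, and Cxcl10 between −0.097 (without WT-1) and 1.18, with −0.058 without 5XFAD-2. Of 729 settings of the 46 genes named against interferon-zero cells, 679 kept direction and call, 33 lost the call and 9 gained it. Of 120 settings of 9 genes between amyloid groups, 89 kept both and 26 lost the call. The pools without amyloid hold 31 to 50 interferon-high cells each, and each side has 3 pools, which limits the precision.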
